A study of Gallus gallus with 25 samples.

Results

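MicroRNAs of male and female chicken gonads were compared at embryonic day 6.5 (E6.5; Hamburger and Hamilton stages 29 to 30), when the gonad begins to differentiate. The samples were chosen by their labels, 5 arrays of Male E6.5 and 3 of Female E6.5, which are 8 of the 25 arrays of the series. The embryos carried no mutation and received no treatment. Gonad pairs were lysed embryo by embryo, sexed by PCR of a W chromosome band in hind-limb tissue and pooled by sex, so each array measured a pool, and how many embryos a pool held is not stated. The small RNA fraction was tagged with Cy5 on its guanine residues, at 500 ng per array.

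The arrays came from 2 array chips. Chip 50636 held Male replicates 1-1 and 1-2 and Female replicates 1-1 and 1-2. Chip 4011845 held Male replicates 2, 3 and 6 and Female replicate 2, so its sex difference rests on 1 female array. Each file also gives an array position, which was 3 for both males and 4 for both females on chip 50636, so sex and position cannot be told apart there. Nothing in the labels says whether replicates 1-1 and 1-2 are separate pools, and the p-values therefore measure the spread between arrays, part of which may be technical.

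A microRNA (miRNA) is a short RNA that pairs with messenger RNAs, mainly through its seed (bases 2 to 8), and lowers their translation and stability. Male chickens carry a pair of Z chromosomes and females Z and W, and the gonads of both sexes start from a similar bipotential structure. The let-7 family is known from the timing of differentiation, the miR-17-92 family from proliferation, and miR-202 from gonads of several vertebrates.

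The perfect-match probes for mature miRNAs included 122 designed on chicken (gga). Others were designed on miRNAs of zebrafish (dre), of human (hsa), of mouse (mmu) or of rat (rno), and some on candidate chicken sequences. A probe was taken as detected on an array if it was brighter than the 95th percentile of that array's 7 negative controls, and 141 probes detected on at least 3 of the 8 arrays were tested. Of these, 36 were chicken probes, 3 candidates, 37 zebrafish, 33 human, 24 mouse and 8 rat probes. A probe named for another species reads whatever chicken RNA binds it. Since 5 of the 8 arrays were male, the filter could be met by males alone: 10 tested probes were detected on no female array and 0 on no male array.

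The targets of the chicken probes on which the results turn are shown first, as the reverse complement of the deposited probe letters, with the seed in capitals. They are given because shared seeds define the families below, and because the number of guanines in the target moved with the sex difference on one chip. The dye tags guanines, but whether labelling had a part in this was not tested.
gga-let-7i: uGAGGUAGuaguuugugcugu
gga-let-7b: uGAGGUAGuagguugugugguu
gga-miR-34a: uGGCAGUGucuuagcugguuguu
gga-miR-196: uAGGUAGUuucauguuguugg
gga-miR-20b: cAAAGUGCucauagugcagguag
gga-miR-92: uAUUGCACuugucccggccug
gga-miR-181a: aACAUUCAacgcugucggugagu
gga-miR-31: aGGCAAGAuguuggcauagcug
gga-miR-202: aGAGGCAUagagcaugggaaaa
gga-miR-204: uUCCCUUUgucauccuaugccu
gga_candidate_dre_130c-1: uAGUACAAcauaaaaagggcgc
The let-7 targets held 8 (let-7i) and 10 (let-7b) guanines, and the miR-204 target held 2.

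The 8 arrays fell apart by chip before they did by sex. Over the 141 tested probes, arrays of 1 chip correlated at 0.74 to 0.97 and arrays of different chips at -0.21 to 0.18. Over all mature probes, most of them not detected, arrays of different chips correlated at 0.42 to 0.64. The 20 brightest mature probes of each chip had 0 in common. Between 64 (Female replicate 2) and 138 (Male replicate 6) mature probes were detected per array. Of the mismatch partners, which carry 2 changed bases, 55 to 82 were detected on the arrays of chip 50636 and 7 to 20 on those of chip 4011845. Female replicate 2 also had the brightest foreground, with a median of 207 against 72 to 137 on the other arrays, and its negative control limit stood at 383. The number of arrays limits the precision, with a median standard error of 0.21 for a sex difference on the log2 scale.

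No miRNA passed the test between males and females at E6.5. All differences below are male minus female on the log2 scale of quantile-normalised intensity, from a limma fit of sex and chip, and an adjusted p (Benjamini-Hochberg over the 141 probes) under 0.05 was required. The share called was 0%, and the smallest limma adjusted p was 0.175. At an unadjusted limma p under 0.05 there were 15 probes higher in males (10.6% of those tested) and 2 higher in females (1.42%), among them chicken let-7i, let-7b, miR-34a, miR-122a and miR-20b, all higher in males. With replicates 1-1 and 1-2 of each sex averaged, as they would count if they were repeats of 1 pool, 8 probes higher in males and 0 higher in females had an unadjusted p under 0.05, and the smallest limma adjusted p was 0.649. The median difference over all tested probes was 0.11, with 91 probes above 0 and 50 below. This split depended on the scaling. In 75th percentile scaling, each array was scaled to the 75th percentile of the 25 probes detected on all 8 arrays. Of these 25, 13 were higher in males on both chips and 4 in females. They include gga-miR-20b, gga-miR-92 and gga-miR-181a, so this scaling can take up part of such differences. The median was then -0.08, and 51 of 141 probes were above 0. The unadjusted limma p was under 0.05 for 0 probes higher in males and 8 higher in females. The size of the differences depended on the scaling as well. Under 75th percentile scaling gga-let-7b was at 0.20, gga-miR-34a at 0.31, gga-miR-122a at 0.25 and gga-miR-196 at 0.22. It put gga-miR-20b at 0.20, gga-miR-92 at 0.30, gga-miR-31 at 0.20 and gga-miR-181a at 0.10. These stand beside the larger values given below. The series table's values gave larger differences. Examples were 2.12 for dre-miR-138, 1.55 for gga-miR-122a, 1.33 for gga-miR-196, 0.84 for gga-miR-34a, 0.83 for gga-let-7b and 0.53 for gga-miR-181a. Family values are therefore also read against the median of all probes.

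The probe with the lowest p was gga-let-7i. It read 9.02 and 8.82 on the male arrays of chip 50636 and 6.63, 6.80 and 6.96 on those of chip 4011845, against 8.25 and 8.47 on the female arrays of chip 50636 and 5.98 on the female array of chip 4011845. Every male array lay above every female array of its own chip, but on chip 4011845 the probe was detected on only 1 of the 3 male arrays and not on the female one. The difference was 0.66 ± 0.16 (SE, 5 males and 3 females, limma adjusted p = 0.175), with 0.55 on chip 50636 and 0.81 on chip 4011845. It was 0.46 under 75th percentile scaling. A zebrafish let-7i probe, dre-let-7i, whose target is 1 base longer, gave 0.24, with 0.18 on chip 50636 and 0.33 on chip 4011845. Its sexes were not apart on both chips.

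The other let-7 probe of chicken with an unadjusted p under 0.05, gga-let-7b, read 10.33, 10.11, 7.54, 7.14 and 7.05 in males (replicates 1-1, 1-2, 2, 3 and 6) and 9.73, 9.53 and 6.98 in females (replicates 1-1, 1-2 and 2). The sexes again did not overlap within either chip, although the lowest male value of chip 4011845 (7.05) was close to the female one (6.98). The difference was 0.45 ± 0.18 (SE, limma adjusted p = 0.324), with 0.59 on chip 50636 and 0.27 on chip 4011845. With the mismatch partner's log2 signal subtracted on each array, and no normalisation between arrays, the difference was -0.35. Without the chip term it was -0.31, and 2 of 3 female but 2 of 5 male arrays were on chip 50636, where the probe was brighter.

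Of the 19 let-7 and miR-98 probes on the array, 9 were tested, and 8 of these were higher in males, with 4 of them at an unadjusted p under 0.05 and 0 called. Their median difference was 0.29, against 0.11 for all tested probes, and 7 of the 9 had the same sign on both chips. Under 75th percentile scaling 7 of 9 were above 0, with a median of 0.17 against -0.08 for all. The 4 tested chicken members ran from 0.17 for gga-let-7a (0.50 on chip 50636 and -0.27 on chip 4011845) to 0.66 for gga-let-7i. These probes differ by few bases and can bind each other's targets, so they are not separate measurements.

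**Figure D1:**
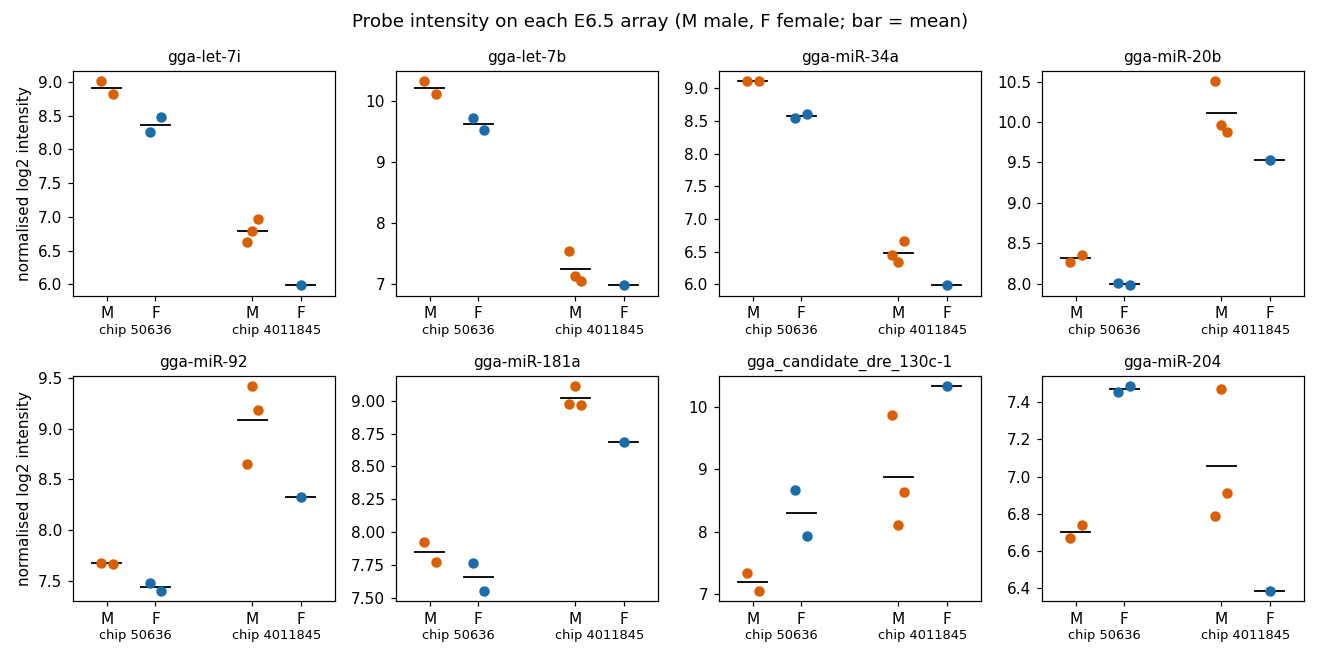
Normalised log2 intensity (vertical axis) of 8 probes on each E6.5 array, with male (M, orange) left of female (F, blue) for each chip. Points are arrays and bars are means, with 1 female array on chip 4011845. For the first 6 probes every male point lies above the female points of its chip, for gga_candidate_dre_130c-1 every one lies below, and for gga-miR-204 the order differs between the chips.

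Of the named chicken probes, gga-miR-20b, gga-miR-92 and gga-miR-181a were detected on all 8 arrays. The first 2 belong to the miR-17-92 family and its paralogues. The gga-miR-20b probe read 8.27, 8.36, 10.51, 9.97 and 9.87 in males (replicates 1-1, 1-2, 2, 3 and 6) and 8.01, 7.98 and 9.53 in females (replicates 1-1, 1-2 and 2). Its sexes did not overlap on either chip, and the difference was 0.44 ± 0.19 (SE, limma adjusted p = 0.324), with 0.32 on chip 50636 and 0.59 on chip 4011845. The mouse and rat miR-20b probes, whose targets are 1 and 2 bases shorter, gave -0.09 and -0.14. The zebrafish one, with 1 base changed, gave 0.38.

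The gga-miR-92 probe read 7.68, 7.67, 8.65, 9.42 and 9.18 in males and 7.48, 7.40 and 8.32 in females, in the same order of replicates. Males were above females on both chips, by 0.46 ± 0.22 (SE, limma adjusted p = 0.324), with 0.23 on chip 50636 and 0.76 on chip 4011845. A zebrafish probe for the same miRNA, dre-miR-92a, whose target differs by 1 base in length, gave -0.37 on chip 50636 and 0.70 on chip 4011845. The 2 near-identical probes thus had the same direction on one chip and not on the other.

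Of 33 probes of the miR-17-92 group, 15 were tested, and 12 were higher in males, with 1 at an unadjusted p under 0.05 and 0 called. The median was 0.23 over both chips, -0.04 on chip 50636 and 0.59 on chip 4011845. For all tested probes the medians on these chips were 0.02 and 0.24. Under 75th percentile scaling 8 of 15 were above 0. The 6 tested chicken members had the same sign on both chips, 5 of them higher in males.

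The gga-miR-181a probe read 7.92, 7.77, 8.97, 9.11 and 8.97 in males and 7.76, 7.55 and 8.69 in females, in the same order. The sexes were apart on both chips, but on chip 50636 the lower male value (7.77) nearly met the higher female one (7.76). The difference was 0.25 ± 0.14 (SE, limma adjusted p = 0.422). MiR-181 is known from lymphocyte development. All 4 tested probes of this family, of 5 on the array, had males above females on both chips (median 0.27, 0 called), and 3 of 4 were above 0 under 75th percentile scaling.

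The gga-miR-34a probe, for a miRNA that p53 induces, read 9.11 and 9.11 in males and 8.55 and 8.61 in females on chip 50636. On chip 4011845 it read 6.45, 6.34 and 6.66 in males and 5.98 in the female, and was detected on no array. The difference was 0.52 ± 0.14 (SE, limma adjusted p = 0.175), with 0.54 on chip 50636 and 0.50 on chip 4011845, and it was -0.10 with the mismatch partner subtracted. The pattern of detection on chip 50636 alone also held for gga-miR-196, encoded within the Hox clusters, with a difference of 0.45 ± 0.20 (SE, limma adjusted p = 0.324), and for mmu-miR-294, dre-let-7h, dre-miR-7a and hsa-miR-196b (0.53, 0.50, 0.58 and 0.37). Their sexes were apart on both chips, yet on chip 4011845 the values lay below the negative control limit. Of the 15 probes higher in males at an unadjusted p under 0.05, 8 were detected on both chips, 6 on chip 50636 alone and 1 on chip 4011845 alone.

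All 5 tested probes of the miR-10 and miR-196 list, of 11 on the array, were higher in males (median 0.37, 0 called), and 3 of 5 were above 0 under 75th percentile scaling, as with the mismatch partner subtracted. The dre-miR-196a probe, whose target differs from the chicken one by 1 base, gave 0.58 ± 0.16 (SE, limma adjusted p = 0.175).

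Where the female arrays were all below the negative control limit, only a lower bound of the fold can be given, taken against the lowest detected signal of each female array. The dre-miR-138 probe was detected on 4 of 5 male arrays and on no female array, at 7.21, 7.45, 8.41, 7.998 and 7.84 in males (replicates 1-1, 1-2, 2, 3 and 6) against 6.60, 6.90 and 7.41 in females. On chip 4011845, where all 3 male arrays were detected, it was at least 1.17-fold higher in males. The figure for chip 50636 was also 1.17-fold. There 1 of the 2 male arrays was undetected and counted as read, so it is no strict bound. The fitted difference was 0.62 ± 0.18 (SE, limma adjusted p = 0.175). The 10 probes detected on no female array passed the filter through males alone. On chip 4011845 each of them was detected on all 3 male arrays. Their bounds there, against 1 female array, ran from 0.71-fold (hsa-miR-210) to 1.49-fold (dre-miR-125c), and a bound below 1 gives no direction. MiR-138 is known from neurons, and the chicken miR-138 probe was not among the tested ones.

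The gga-miR-31 probe, for a miRNA whose gene lies on the Z chromosome, read 6.44 and 6.33 in males and 6.20 and 6.16 in females on chip 50636, all below the limit. On chip 4011845 it read 8.27, 8.09 and 8.54 in males, all detected, and 7.80 in the female, which was not. The bound there, against 1 female array, was 1.36-fold higher in males. The probe is among the 10 that passed the filter through males alone, so the filter itself favoured a higher male value. The fitted difference was 0.33 ± 0.16 (SE, limma adjusted p = 0.324). The mouse probe mmu-miR-31, whose target has 1 base changed, gave 0.04, with -0.01 on chip 50636 and 0.10 on chip 4011845. The zebrafish probe dre-miR-31, whose target is 1 base shorter, gave 0.47, with 0.18 and 0.86. Both were also detected on no female array.

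Z linkage was read from the gene annotation of assembly GRCg7b, where 117 of 122 chicken miRNA names were found. A Z gene was found for 11 probes, of which 4 were tested: gga-miR-31 and gga-miR-23b, with every gene copy on Z, and gga-miR-122a and gga-miR-204, with 1 of 2 copies there. The other copy lies on W for gga-miR-122a, so that females carry both, and on an autosome for gga-miR-204. These 4 had differences of 0.33, -0.01, 0.50 and -0.15, a median of 0.16 beside 0.11 for all tested probes. Of the 4, gga-miR-31 and gga-miR-122a were higher in males on both chips. However, gga-miR-31 was detected on the male arrays of chip 4011845 alone, and gga-miR-122a on chip 50636 alone. The tested gga-miR-7b probe, whose only matched gene lies on W, gave 0.13. It was at 0.48 on chip 50636 and at -0.34 on chip 4011845, where it was detected on no array. Its target is within 2 bases of that of gga-miR-7, whose genes lie on chromosomes 10, 28 and Z.

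Among probes higher in females, gga_candidate_dre_130c-1 had the lowest p and one of the largest differences. It is a candidate chicken sequence of the array maker, and its seed is not that of the annotated miR-130 probes. It read 7.35, 7.05, 9.88, 8.11 and 8.64 in males (replicates 1-1, 1-2, 2, 3 and 6) and 8.67, 7.94 and 10.33 in females (replicates 1-1, 1-2 and 2). Females were above males on both chips, with differences of -1.10 on chip 50636 and -1.46 on chip 4011845, and the fitted difference was -1.26 ± 0.40 (SE, limma adjusted p = 0.194). The miR-130 and miR-301 list itself had 4 tested probes of 10, 3 of them higher in females, with a median of -0.16 and 0 called, but with the mismatch partner subtracted all 4 were above 0 (median 0.10).

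The other female-higher probe at an unadjusted p under 0.05 was hsa-miR-129, for a miRNA known from brain. It read 6.81, 7.15, 6.99, 7.12 and 7.11 in males and 7.61, 7.95 and 7.17 in females. The difference was -0.80 on chip 50636 and -0.09 on chip 4011845, and -0.50 ± 0.20 over both (SE, limma adjusted p = 0.324). On chip 4011845 it was detected on 2 male arrays and not on the female one. A zebrafish probe, dre-miR-129, whose target is 1 base longer, gave -0.17, with -0.34 on chip 50636 and 0.05 on chip 4011845. Its sexes were not apart on both chips.

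Several further probes higher in females rested on the single female array of chip 4011845. The mmu-miR-494 probe read 6.57, 6.40, 9.73, 7.39 and 8.91 in males and 6.70, 7.19 and 10.96 in females, and was detected on chip 4011845 alone. Its difference was -2.28 on that chip and -0.46 on chip 50636, and -1.24 ± 0.57 over both (SE, limma adjusted p = 0.324). Without Female replicate 2 it was -0.45. The same pattern was seen for hsa-miR-519e* (-1.52 on chip 4011845 and -0.13 on chip 50636), for dre-miR-140* (-1.78 and -0.12) and for the miR-124 probes.

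All 3 tested probes of the miR-140 list, of 5 on the array, were star-strand probes of other species, and all were higher in females, with a median of -0.45, of which -0.06 on chip 50636 and -0.96 on chip 4011845. With the mismatch partner subtracted, 1 of the 3 was above 0. The chicken miR-140 probe was not among those tested. MiR-140 is known from cartilage and from the mouse testis.

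Markers of other tissues were read beside these values. MiR-124, the neuronal miRNA, was represented by 3 tested probes of 9 in the nervous system list, all higher in females (median -0.65). The gga-miR-124a probe read 6.08, 6.07, 8.18, 7.08 and 7.39 in males and 6.01, 6.05 and 8.97 in females, so the sexes differed by 0.05 on chip 50636, where it was detected on no array, and by -1.43 on chip 4011845. The summed log2 level of the list ran from 7.59 to 9.74 on male arrays and from 7.63 to 10.66 on female arrays. The difference was -0.58 ± 0.36 (SE, limma adjusted p = 0.475), and whether nervous tissue differed between the pools was not tested.

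The liver miRNA miR-122 had both its probes tested, and both were higher in males on both chips. The gga-miR-122a probe read 8.11 and 7.97 in males and 7.51 and 7.35 in females on chip 50636, and was detected on no array of chip 4011845, where it read 6.38, 6.21 and 6.45 in males and 6.01 in the female. The difference was 0.50 ± 0.15 (SE, limma adjusted p = 0.175).

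Of the muscle list (miR-1, miR-133, miR-206 and miR-499), 2 of 15 probes were tested, with gga-miR-206 at 0.01 ± 0.25 and rno-miR-1 at 0.30 ± 0.17 (SE, limma adjusted p = 0.985 and 0.422). Of the mesenchyme lists, 3 of 5 probes for miR-199 and miR-214 were tested (median 0.01). Here gga-miR-199a was at 0.01 ± 0.21 and dre-miR-199* at 0.28 ± 0.26 (SE, limma adjusted p = 0.985 and 0.674). The dre-miR-214 probe was at -0.26, with 0.22 on chip 50636 and -0.90 on chip 4011845. For miR-143 and miR-145, 2 of 4 were tested, with a median of 0.25. Of the early embryo and germ cell list, 3 of 21 were tested (median 0.04), with gga-miR-302b* at -0.11 ± 0.21 (SE, limma adjusted p = 0.810). These lists held 0 probes called or at an unadjusted p under 0.05, and the part of these cells in the results was not tested. For gga-miR-199a the chips had opposite signs, -0.31 on chip 50636 and 0.43 on chip 4011845. No probe of the red blood cell (4 on the array), white blood cell (7), endothelium (2), kidney epithelium (6) and general epithelium (17) lists was detected on at least 3 arrays. In pooled tissue, fewer cells of a type and less RNA per cell cannot be told apart.

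The gonad miRNA miR-202 had 2 tested probes of 5. The gga-miR-202 probe read 6.65, 6.71, 9.24, 7.83 and 7.96 in males (replicates 1-1, 1-2, 2, 3 and 6) and 6.23, 6.37 and 8.10 in females (replicates 1-1, 1-2 and 2). On chip 4011845, where it was detected on all 4 arrays, the female value lay between those of the males. The difference was 0.32 ± 0.32 (SE, limma adjusted p = 0.674), and that of dre-miR-202 was 0.21 ± 0.31 (SE, limma adjusted p = 0.776), with 0.39 on chip 50636 and -0.03 on chip 4011845. Under 75th percentile scaling dre-miR-202 was at -0.0097.

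Direction agreed between the chips for 71 of the 141 tested probes (50.4%, 95% exact binomial interval 41.8 to 58.9, which treats probes as independent although many share targets). Both chips gave males higher for 53 probes and females higher for 18, while 51 were higher in males on chip 4011845 alone and 19 on chip 50636 alone. Across probes, the differences on one chip correlated with those on the other at r = 0.06, given as a description since all arrays of a chip share its hybridisation conditions. For the 36 chicken probes the share was 55.6%.

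Of 77 probes detected on at least 1 array of each chip, 37 had the same sign (48.1%), of 53 detected on at least 2 arrays of each chip 31 did (58.5%), and of 25 detected on all 8 arrays 17 did (68.0%, r = 0.44). Among the 20 probes with the lowest p on chip 4011845, 16 had the same sign on chip 50636, and among the 20 with the lowest p on chip 50636, 10 had the same sign on chip 4011845. Within chip 50636 alone 40 probes had an unadjusted limma p under 0.05 and 0 were called. The median SD between arrays there was 0.11 in males and 0.12 in females, against 0.30 in males of chip 4011845. The arrays of chip 50636 are replicates 1-1 and 1-2, which may be repeats of the same pool, so the 40 may rest on technical spread. Chip 4011845 alone, with 1 female array, is not counted in this way.

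A stricter count asks for probes whose male and female arrays did not overlap on either chip, among the 139 with a value on every array. Males were higher on both chips for 25 (18.0%), females on both for 9 (6.47%), and the sexes were apart in opposite directions for 16 (11.5%). The opposite kind pools both orders of the chips, so its count cannot be set against either of the others alone. With as few arrays per sex and chip as here, some probes would be apart in each way by chance. Of the 25, 12 were detected on both chips, 11 on chip 50636 alone and 2 on chip 4011845 alone. The chicken members among the 25 were let-7i, let-7b, miR-34a, miR-122a, miR-20b, miR-196, miR-92, miR-31 and miR-181a.

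**Figure D2:**
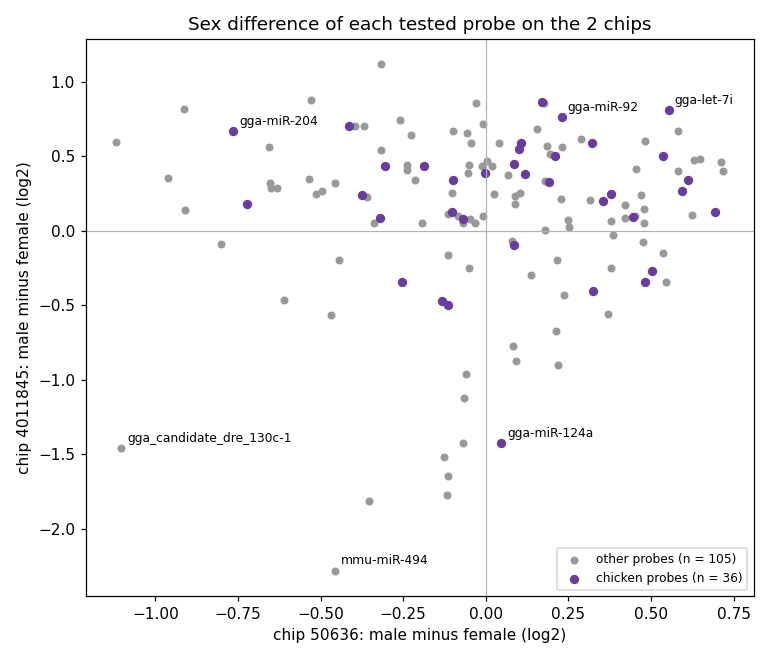
Sex difference (male minus female, log2) of each of the 141 tested probes on chip 50636 (horizontal axis) and chip 4011845 (vertical axis), with 36 chicken probes in purple and the 105 others, array maker's candidates included, in grey. Points in the upper right and lower left, 71 of 141, have 1 direction on both chips.

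The test of whether the sex difference itself differed between the chips, a sex by chip interaction in limma, called 0 of 141 probes (0%), with a smallest adjusted p of 0.464 and 15 probes (10.6%) at an unadjusted p under 0.05. The probes that share the miR-204 seed showed the clearest opposition among the families. The gga-miR-204 probe read 6.67 and 6.74 in males and 7.45 and 7.48 in females on chip 50636, but 6.79, 7.47 and 6.91 in males and 6.39 in the female on chip 4011845. It was detected on both female arrays and no male array of chip 50636, and on 2 of 3 male arrays and not the female one of chip 4011845, so on each chip 1 sex stood below the negative control limit. Its differences were -0.76 and 0.67, and the interaction was -1.43 ± 0.39 (SE, limma adjusted p = 0.464). All 4 probes of that seed were lower in males on chip 50636 and higher on chip 4011845, with medians of -0.84 and 0.63. MiR-204 is known from the eye and kidney.

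Families that share a seed were compared in the same way. The 8 tested let-7 probes with the let-7 seed had medians of 0.53 on chip 50636 and 0.30 on chip 4011845, and 7 had the same sign on both. The 4 miR-196 probes (0.44 and 0.34) and the 4 miR-181 probes (0.28 and 0.20) all had males higher on both chips. All tested probes had medians of 0.02 on chip 50636 and 0.24 on chip 4011845. On chip 4011845 the miR-181 median was thus below that of all probes, and the let-7 median was little above it. The 5 probes of the miR-92 seed had -0.23 on chip 50636 and 0.64 on chip 4011845, with 1 probe of the same sign. The 9 miR-17, miR-20 and miR-106 probes had 0.12 and 0.59, with 7 of the same sign.

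**Figure D3:**
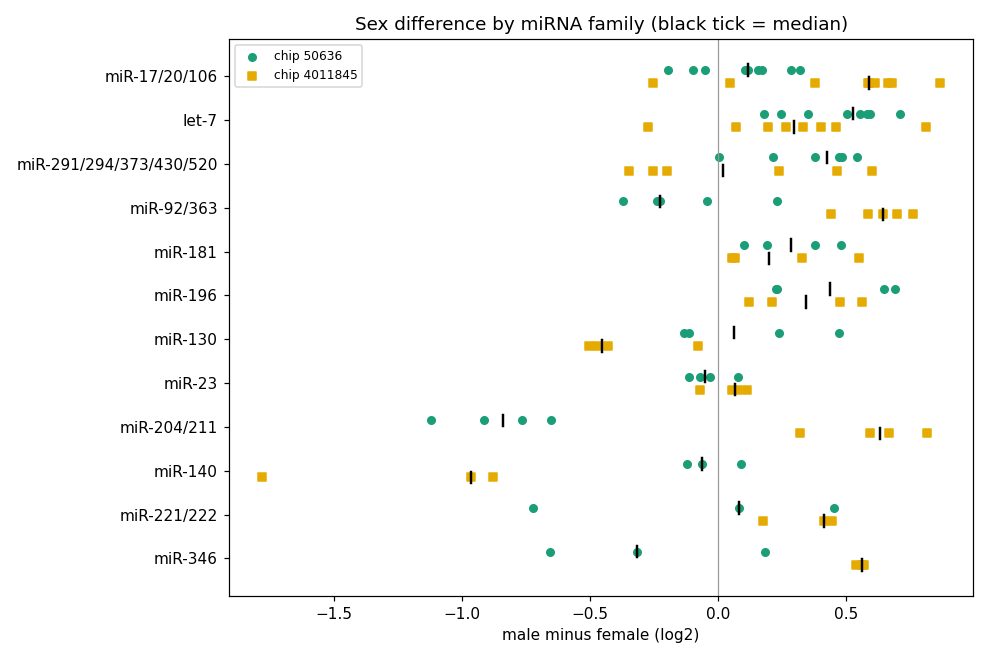
Sex difference (male minus female, log2) of the probes of each family that shares a seed and has at least 3 tested probes, on chip 50636 (green circles) and chip 4011845 (yellow squares), with black ticks for medians. The let-7, miR-196 and miR-181 medians lie above 0 on both chips, and those of the miR-204 and miR-92 families on opposite sides of 0. All tested probes had medians of 0.02 on chip 50636 and 0.24 on chip 4011845.

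The guanine content of the target moved with the sex difference on chip 50636. Across the 141 probes, the number of guanines correlated with male minus female at r = 0.56 on chip 50636 and -0.16 on chip 4011845, and over the 36 chicken probes at 0.78 and -0.13. The number of cytosines gave -0.64 and 0.17 over all probes. These values are a description, since the probes of a chip share the same 4 arrays. On chip 50636, probes with up to 4 guanines had a median of -0.24, with 6 of 37 higher in males. Those with 7 or more had a median of 0.22, with 49 of 63 higher in males. On chip 4011845 the same groups had medians of 0.34 and 0.14.

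The slope of an array's deviation from its chip mean was 0.08 and 0.03 per guanine on the male arrays of chip 50636 and -0.03 and -0.08 on the female ones. On chip 4011845 it was 0.06, -0.11 and 0.02 in males and 0.04 in the female. The sexes were thus apart in this slope on one chip and overlapped on the other, where the adenine and uracil numbers correlated with the sex difference at -0.46 and 0.46. The 12 male-higher probes with the lowest p held a median of 8 guanines, the 12 female-higher ones 6.5 and all tested probes 6. The miR-204 seed family, with a median of 2 guanines, and the let-7 seed family, with a median of 8, thus stood near the ends of this scale.

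With each array's linear dependence on guanine and cytosine number removed before the fit, an alternative chosen after seeing the data, 0 of 141 probes were called, with 13 higher in males and 6 higher in females at an unadjusted limma p under 0.05. The difference was then 0.52 for gga-let-7i, 0.26 for gga-let-7b, 0.45 for gga-miR-34a, 0.54 for gga-miR-92 and 0.40 for gga-miR-20b. For let-7b this was well below the 0.45 of the fit without that step, and for miR-92 it was above the 0.46 of that fit. The chips then agreed in direction for 55.3% of probes.

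**Figure D4:**
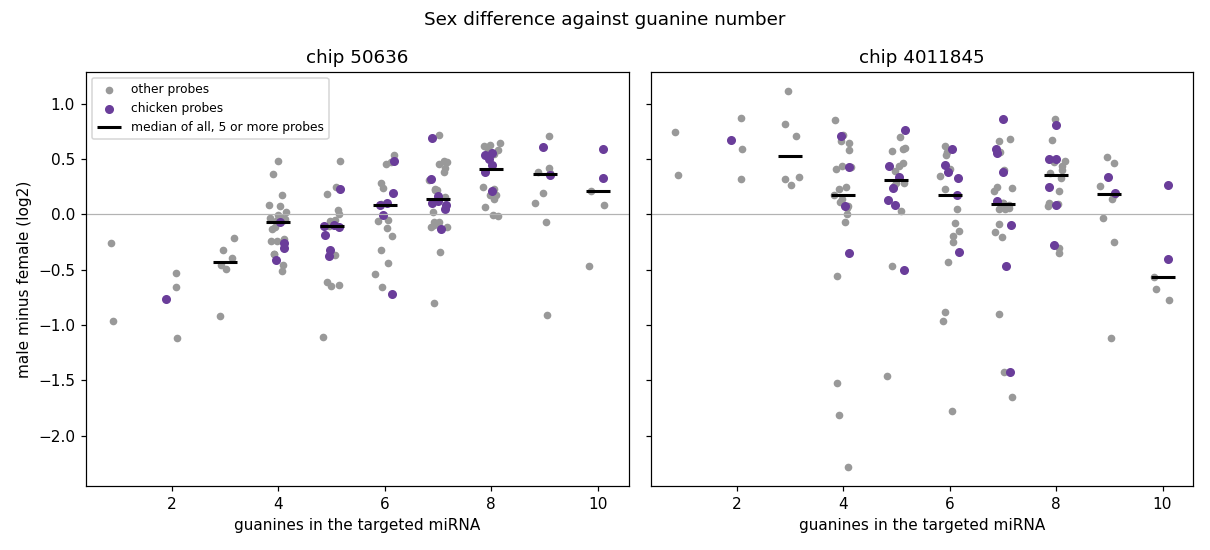
Sex difference (male minus female, log2) against the number of guanines in the targeted miRNA, for chip 50636 (left) and chip 4011845 (right), with chicken probes in purple and other probes in grey, spread sideways for visibility. Black bars are medians over all probes where at least 5 share a number. On chip 50636 the medians climb with guanine number (r = 0.56), and on chip 4011845 they do not (r = -0.16).

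Adding array position to the fit, again chosen after seeing the data, gave no stable result. With the 3 positions as separate levels, 22 of the 141 probes were called, 9 higher in males and 13 higher in females. In that fit Male replicate 3, alone at position 2, and Male replicate 6, the only male array at position 4, were fitted exactly, with 3 residual degrees of freedom left, so each sex difference rests on Male replicate 6 with no check of it. With position as a number 0 probes were called (0%), with 12 higher in males and 7 higher in females at an unadjusted limma p under 0.05. The gga-let-7i probe was at 0.95 with levels and 0.75 with a number, gga-miR-92 at 0.83 and 0.34, gga_candidate_dre_130c-1 at -1.91 and -0.99, and gga-miR-202 at -0.39 and 0.39. On chip 50636 position and sex coincide, so neither fit separates them there. At position 4 of chip 4011845, which held Male replicate 6 and Female replicate 2, the male array was higher for 91 of 140 probes, and 82 of the 140 had the sign of chip 50636. Against the same female array, Male replicate 2 at position 3 gave 103 and 85 of 140. Male replicate 3 at position 2 gave 92 and 65 of 141. These are differences between single arrays, and an effect of position was not tested.

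The sex difference was also set beside those of the other stages, each from a fit of its own arrays. Let-7i differed by 0.06 ± 0.22 at E5.5 and -0.12 ± 0.22 at E9.5, against 0.66 ± 0.16 at E6.5 (SE). Let-7b was above 0 at all 3 stages, at 0.37 ± 0.21, 0.45 ± 0.18 and 0.27 ± 0.23 (SE; gga probe, limma adjusted p = 0.866, 0.324 and 0.654 at E5.5, E6.5 and E9.5). The gga-miR-92 probe gave 0.53 ± 0.40, 0.46 ± 0.22 and 0.15 ± 0.20 (SE) in the same order, and gga-miR-20b 0.05 ± 0.24, 0.44 ± 0.19 and -0.20 ± 0.17 (SE). None of these 4 passed the test between stages, with limma adjusted p of 0.279 or more.

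The gga-miR-202 probe gave 0.24 ± 0.34 at E5.5, 0.32 ± 0.32 at E6.5 and 1.06 ± 0.22 at E9.5, and passed the threshold in the last of these (SE, limma adjusted p = 0.911, 0.674 and 0.0241). The change in this difference between E6.5 and E9.5 did not pass its own test (limma adjusted p = 0.555).

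In 1 fit of all 25 arrays and 213 probes, the sex difference at E6.5 differed from that at E5.5 for 0 probes (13, or 6.10%, at an unadjusted limma p under 0.05; smallest adjusted p 0.775). It differed from that at E9.5 for 0 probes as well (21, or 9.86%; smallest adjusted p 0.167). Without Female replicate 2 each of these contrasts called 2 probes, hsa-miR-520d* and hsa-miR-527 in both, named after their values were seen. Signs agreed between E6.5 and E5.5 for 77 of 122 probes (63.1%, r = 0.47 across probes) and between E6.5 and E9.5 for 42 of 98 (42.9%, r = -0.19). The E5.5 arrays used the same 2 chips and all E9.5 arrays chip 4011845. On chip 4011845 alone, the E6.5 difference had the sign of E9.5 for 52 of 98 probes (53.1%, r = -0.17). On chip 50636 alone it did for 44 of 98 (44.9%, r = -0.10).

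**Figure D5:**
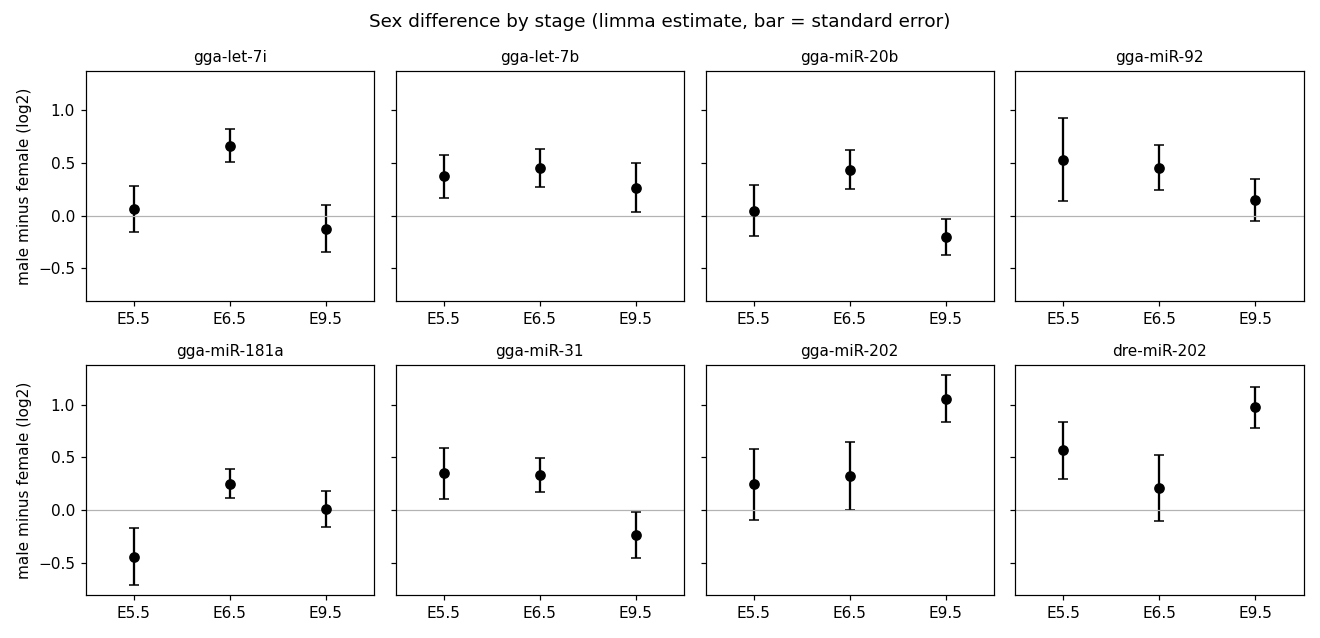
Sex difference (male minus female, log2) of 8 probes at E5.5, E6.5 and E9.5, with the limma estimate of each stage's own fit as points and standard errors as bars. At E6.5 gga-let-7i stands at 0.66 and both miR-202 probes below 0.33, while at E9.5 both miR-202 probes stand near 1.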

How the data were processed

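Small RNA of pooled gonads was measured on 1-colour arrays, 8 of them at E6.5. Whether these 8 held separate pools is not stated. The authors deposited scanner files with a median foreground intensity per spot and a series table of intensity values that is an exact straight line of those medians, used as an alternative. The image software, genome build and background treatment are not given in the sources used here. Excluded spots were left out. Per array, normexp correction (offset 50) ran over all spots. Perfect-match mature probes were put on the log2 scale and quantile-normalised over the 8 arrays, and limma 3.58.1 in R 4.3.3 fitted sex and chip. A log2 difference after normexp understates that of dim probes. The procedure was tested on simulated arrays.

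Probes named are the 12 with the lowest p in each direction, miR-202, chicken probes whose sexes were apart on both chips, and chicken members of marker lists. The members, lists and rules were chosen with earlier results of these data known. No 2 arrays held identical values. Same-numbered male and female arrays deviated from the fit with correlations of -0.39, -0.27 and 0.31. The fit makes the deviations within each chip and each sex cancel, so these values cannot decide whether the numbers pair samples. The main fit did not use them as pairs. Alternatives covered the chip term, each chip alone, scaling, background correction, detection filter, mismatch subtraction, array weights, exposure, a replicate block, averaging of 1-1 and 1-2, and each array left out. In mismatch subtraction, the log2 mismatch value was taken from the log2 perfect-match value of each array, without normalisation between arrays. Figures were drawn with matplotlib from the same tables.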

Additional observations from a re-analysis of the deposited data

Results flagged for a closer look

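After removal of the chip term, the 5 male values of each of the 35 named probes were examined for an array far from the others, and 2 probes had one. Chance alone gives such an array in about 1 of 20 groups. For hsa-miR-129, Male replicate 1-1 stood at 6.65, below the other 4 males at 6.99 to 7.12. For hsa-miR-494, Male replicate 3 stood at 7.95, below the other 4 at 9.35 to 9.62.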

How the results depend on the processing

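The count of 0 called probes held in 26 of 27 alternatives, with smallest limma adjusted p of 0.0850 (no detection filter), 0.0878 (array weights), 0.0896 (chip 50636 alone), 0.729 (75th percentile scaling) and 0.992 (no chip term), the leave-outs of 1 array among them (0 called, lowest 0 and highest 0). The exception was array position as levels, with 22 calls, where 2 male arrays were fitted exactly; as a number it gave 0. The replicate block also gave 0 calls, where 29 unadjusted p-values were under 0.05 and the smallest adjusted one was 0.137. It turned gga-miR-199a to -0.17 and no other named probe. Whether the numbers pair the arrays could not be decided. The sex by chip interaction called 3 probes without the detection filter (dre-miR-216b, hsa-miR-199b and hsa-miR-527, named after their values were seen), and chip agreement reached 60.9% over 46 probes detected on at least 6 arrays. The stage contrasts called 0 to 2 probes when 1 array was left out. This was done only for Female E5.5 replicate 1-2, Female E6.5 replicate 2 and Male E6.5 replicate 2.

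Signs that turned are given as male minus female. With no chip term these were mmu-miR-294 (-0.34), gga-miR-34a (-0.18), dre-let-7h (-0.40), mmu-miR-468 (-0.24), dre-miR-7a (-0.059), hsa-miR-196b (-0.39), gga-let-7b (-0.31), gga-miR-196 (-0.025) and gga-miR-206 (-0.65). With the mismatch subtracted they were mmu-miR-294 (-0.038), gga-miR-34a (-0.10), hsa-miR-196b (-0.057), gga-let-7b (-0.35), gga-miR-302b* (0.13) and gga-miR-206 (-0.22). On chip 4011845 alone they were mmu-miR-298 (0.14), dre-miR-202 (-0.030), gga-miR-302b* (0.24) and gga-miR-206 (-0.41), and on chip 50636 alone gga-miR-124a (0.047) and gga-miR-199a (-0.31). Under 75th percentile scaling they were dre-miR-202 (-0.0097), gga-miR-199a (-0.058) and gga-miR-206 (-0.17), and with position as levels gga-miR-202 (-0.39), dre-miR-202 (-0.57) and gga-miR-206 (-0.43). With position as a number gga-miR-302b* was at 0.017. The series values turned gga-miR-302b* (0.15), array weights gga-miR-199a (-0.15), and averaging 1-1 with 1-2 gga-miR-206 (-0.11). The gga-miR-206 probe also turned with guanine alone (-0.16) or guanine and cytosine removed (-0.18). Leaving out 1 array, values ran from -0.37 to 0.018 for gga-miR-302b*, from -0.30 to 0.11 for gga-miR-199a and from -0.17 to 0.33 for gga-miR-206. The cause of these turns was not tested. Signal over the negative controls limits both chips. Of the 141 tested probes, 38 were detected on no array of chip 4011845 and 26 on no array of chip 50636. Of the 100 brightest mature probes of an array, 77 to 83 were brighter than their mismatch partner on chip 50636, and 97 to 99 on chip 4011845.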
